A study of Mus musculus with 8 samples.

Results

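The data described here are the response of Mettl3-deficient macrophages to LPS and nigericin, measured by RNA sequencing across all genes. The comparison takes 4 of the study's 8 libraries, chosen by their labels: 2 libraries of stimulated KO macrophages and 2 of KO macrophages given PBS. All cells were bone marrow-derived macrophages, which are grown in culture from mouse bone marrow, and all came from mice with floxed Mettl3 (Mettl3fl/fl). KO cells also carried Cre recombinase driven by the promoter of Lyz2 (Lyz2-Cre-Mettl3fl/fl), a lysozyme gene active in myeloid cells. The WT cells were Mettl3fl/fl without Cre, so Mettl3 deletion and the presence of Cre cannot be told apart. Stimulated cells received LPS at 50 ng/ml overnight and then nigericin at 10 µM, for 3 h according to the sample labels, while the series text names a shorter exposure as well. Control cells received PBS. The labels used here give neither the age and sex of the mice nor whether each library had its own animal or culture, so the p-values rest on library-to-library spread alone, some of which may be technical.

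LPS is a bacterial cell wall component that binds the receptor TLR4 through CD14 and MD-2. TLR4 signals through MyD88 to NF-kB and MAP kinases, and through TRIF to interferon regulatory factors, whose product interferon beta then acts on the same cells to induce interferon-stimulated genes. Nigericin is an ionophore that lets potassium leave the cell, which triggers the NLRP3 inflammasome, a caspase-1 platform that matures interleukin-1 beta and opens gasdermin D pores. METTL3 is the catalytic subunit of the enzyme that places N6-methyladenosine (m6A) on mRNA, a mark that influences splicing, translation and decay. RNA was measured after both agents had been applied, so their effects cannot be told apart.

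The deleted gene, Mettl3, with identifier ENSMUSG00000022160, lies on chromosome 14, 52294841 to 52305128, minus strand (GRCm38). It stood at 5.63 and 6.33 CPM (counts per 1000000 counts of a library, scaled for composition) in the KO libraries with PBS and at 9.08 and 7.87 CPM after stimulation. Every KO library was below every WT library, which held 13.6 and 13.3 CPM with PBS and 28.2 and 23.4 CPM after stimulation. Counts cover the whole gene and include transcripts without the floxed exons. Within the KO cells the log2 fold change of Mettl3 was 0.50 ± 0.14 (SE, n = 2 per group, adjusted p = 0.0261 in edgeR's quasi-likelihood test with Benjamini-Hochberg adjustment). This call was lost without KO PBS library 1, KO PBS library 2 or stimulated KO library 1 (adjusted p up to 0.14).

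The 4 KO libraries held 55032057, 59445026, 55326841 and 65341905 counts, and same-group libraries differed by a median absolute log2 value of 0.15 with PBS and 0.12 after stimulation. Reads of the mitochondrial genome took 2.97 and 3.36% with PBS and 2.36 and 1.84% after stimulation. Defining macrophage genes were abundant in all of them. Csf1r, the receptor for the growth factor that sustains macrophages, stood at 4670 and 4970 CPM with PBS and 4022 and 3856 CPM after stimulation, Cd68 at 2015 and 2086 CPM with PBS and 1254 and 1236 CPM after stimulation, and the transcription factor Spi1 at 331 and 347 CPM with PBS and 424 and 405 CPM after stimulation. Of other cells' markers, Ly6g, Elane, Prtn3 and Cxcr2 (neutrophils) were too low to be tested. The summed level was 24.5 and 26.3 CPM with PBS and 5.99 and 5.16 CPM after stimulation for 5 tested neutrophil markers, most of it Mmp8. It was 1.65 and 1.44 and then 3.09 and 4.17 CPM for 5 dendritic cell markers and 15.8 and 21.1 and then 5.16 and 5.25 CPM for 2 T and NK cell markers, most of it Cd4. Cd3e, Cd3d, Cd8a, Trac, Ncr1 and Nkg7 were too low to be tested. B and plasma cell markers summed to 51.7 and 59.3 and then 48.2 and 39.8 CPM. Fibroblast markers summed to 283 and 301 and then 377 and 336 CPM, with 4 of 10 higher after stimulation (2 to 4 without 1 library, with 2 without KO PBS library 1 or stimulated KO library 1). Sums were 140.4 and 149 and then 31.9 and 29.9 CPM for endothelial markers, most of it Vwf, 18.1 and 17.2 and then 24.4 and 19.1 CPM for erythroid and megakaryocyte markers, 0.494 and 0.609 and then 0.887 and 0.472 CPM for mast cell markers and 362 and 390.1 and then 512 and 506 CPM for osteoclast markers. The part of these cells in the results below was not tested, and in bulk RNA fewer cells of a type and less RNA per cell cannot be told apart.

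Stimulation changed a large share of the transcriptome in KO macrophages. Of 17470 tested genes, 3527 rose and 3312 fell in edgeR's quasi-likelihood test at a Benjamini-Hochberg adjusted p of 0.05, which is 39.1% of the genes tested (20.2% up and 19.0% down). These shares are the background for every gene group below, as is the median log2 fold change of all tested genes, -0.03. With scaling by library size alone, without a composition factor, that median moved to -0.11. The changes were wide in range. Called and past 2-fold were 1603 rises (9.18%) and 1658 falls (9.49%), past 4-fold 844 rises (4.83%) and 678 falls (3.88%), and past 16-fold 384 rises (2.20%) and 236 falls (1.35%). Of 311 tested genes with 0 counts in both KO PBS libraries 169 rose, and of 294 with 0 counts in both stimulated KO libraries 135 fell. The low-count filter kept such genes only for their counts in other libraries, so these shares were partly set in advance. Protein-coding genes gave 3104 rises (23.3%) and 2953 falls (22.2%) of 13302, and lincRNA genes 65 rises (13.6%) and 77 falls (16.1%) of 479. Calls were tied to abundance: of 5 equal classes by mean level, the lowest had 4.49% risen and 5.07% fallen and the highest 34.4% and 27.7%. Unless a sentence says otherwise, the call of each gene named as risen or fallen was kept in all 8 fits that each left out 1 library.

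**Figure D1:**
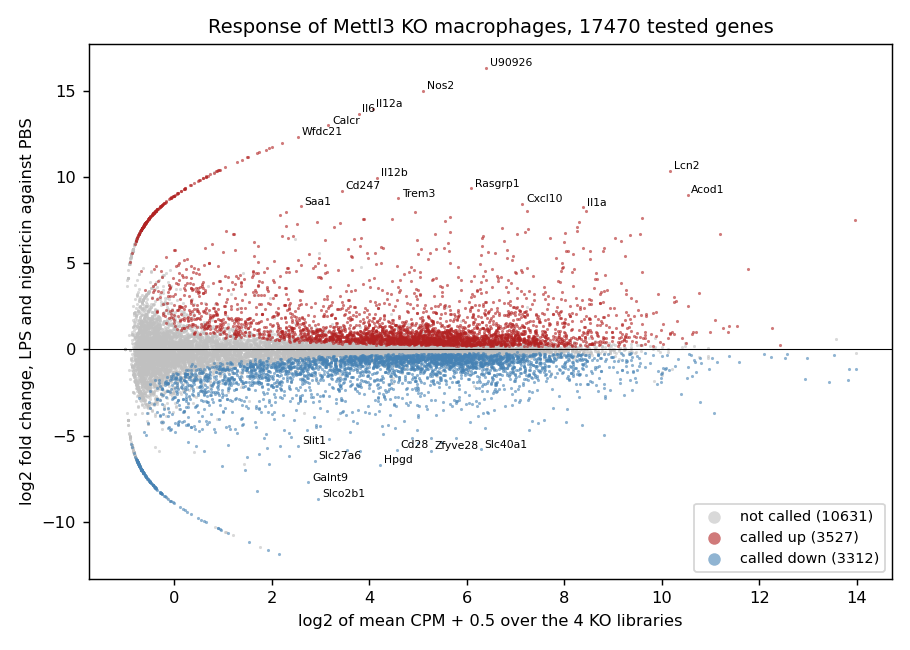
Mean level over the 4 KO libraries, as log2(CPM + 0.5), against the log2 fold change of stimulated over PBS KO macrophages for 17470 genes, with 3527 called up, 3312 called down and 10631 not called. The curved bands at low levels are genes with 0 counts in 1 of the groups.

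The largest rises were in genes with little or no RNA counted in resting KO macrophages. U90926 (chromosome 5, 92209893 to 92215408, minus strand), a gene known for its induction in activated macrophages, had 0 counts in both PBS libraries and 172 and 164 CPM after stimulation. Against a floor of 3 counts over the PBS group it was at least 6753-fold higher. Nos2, which makes nitric oxide in activated macrophages, was likewise at 0 counts with PBS and at 70.0 and 65.5 CPM after stimulation, at least 2728-fold higher. The PBS and stimulated libraries did not overlap, which the rule that chose the 15 largest rises and 15 largest falls required of each. Across all tested genes 6213 (35.6%) had every stimulated KO library above every PBS library and 6501 (37.2%) had every one below. Also at 0 counts in both PBS libraries were Il12a, the p35 chain of interleukin-12, with 40.2 and 25.1 CPM after stimulation (at least 1293-fold), Il6 with 29.9 and 23.3 CPM (at least 1063-fold) and Wfdc21 with 10.0 and 11.2 CPM (at least 431-fold). Calcr, the calcitonin receptor and a marker of osteoclasts, was also at 0 with PBS and at 15.5 and 18.3 CPM after stimulation, at least 687-fold higher. Another osteoclast marker, Ctsk, fell by 1.89 ± 0.09, so the osteoclast list did not move as a whole (3 up and 3 down of 7). In WT cells Calcr reached 1.67 and 2.17 CPM after stimulation. The test of the difference between the KO and WT responses called 0 of the 7 osteoclast markers, Calcr included.

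Among rises from a low level with PBS, Lcn2, which binds bacterial siderophores and so withholds iron, went from 1.89 and 1.59 CPM with PBS to 2507 and 2101 CPM (log2 fold change 10.37 ± 0.29). Acod1, the enzyme that makes itaconate, went from 7.29 and 4.65 to 2956 and 2938 CPM (8.95 ± 0.26). Rasgrp1, an activator of Ras better known from lymphocytes, went from 0 and 0.4 to 134 and 136 CPM (9.35 ± 0.67). All 3 were low in both PBS libraries and high in both stimulated ones. Cd247, the zeta chain of the T cell receptor complex, rose from 0 and 0.0641 to 19.1 and 22.1 CPM (9.20 ± 0.56), beside a T and NK cell marker sum that was lower after stimulation. Trem3, a receptor that signals through DAP12, rose from 0 and 0.208 to 45.8 and 48.9 CPM (8.77 ± 0.68). The acute-phase gene Saa1 rose from 0.0681 and 0 to 10.8 and 11.3 CPM (8.30 ± 0.64). These 3 genes and Rasgrp1 had 0 counts in 1 PBS library, so their folds rest on few control counts. The largest adjusted p among the genes of this paragraph was 0.000211 (Trem3).

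The promoters of 3 strongly induced genes are shown, chosen among the largest rises with a RefSeq promoter for the most matches to short motifs. Cxcl10 had 3 different motifs, Il6 had 2 and Acod1 had 1. Il12a and Il1a also had 1, as did Calcr to a cell cycle motif (TTTGAA), and Acod1 was taken as the alphabetically first. Cd247, Il12b, Lcn2, Rasgrp1, Saa1 and U90926 had 0 matches. Each promoter shown runs from 250 bases before to 50 bases after the RefSeq start (GRCm38.p6). Capitals mark the matches to an NF-kB-like motif (GGNNTTTCC), an interferon response element-like motif (GAAANNGAA) and an AP-1-like motif (TGACTCA), on either strand. Cxcl10 lies at chr5:92348840-92349139 on the minus strand, Il6 at chr5:30012864-30013163 on the plus strand and Acod1 at chr14:103046762-103047061 on the plus strand.
Cxcl10: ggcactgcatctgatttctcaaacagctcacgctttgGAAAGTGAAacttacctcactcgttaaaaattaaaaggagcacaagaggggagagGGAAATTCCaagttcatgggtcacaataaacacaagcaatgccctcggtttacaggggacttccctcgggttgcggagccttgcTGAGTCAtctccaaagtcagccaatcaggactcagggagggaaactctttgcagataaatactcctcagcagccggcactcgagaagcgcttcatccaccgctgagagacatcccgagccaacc
Il6: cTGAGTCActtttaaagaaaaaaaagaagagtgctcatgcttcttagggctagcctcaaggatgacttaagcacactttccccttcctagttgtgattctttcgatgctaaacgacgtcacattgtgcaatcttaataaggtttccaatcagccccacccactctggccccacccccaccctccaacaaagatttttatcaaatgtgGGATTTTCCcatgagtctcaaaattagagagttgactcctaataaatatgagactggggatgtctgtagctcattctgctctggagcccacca
Acod1: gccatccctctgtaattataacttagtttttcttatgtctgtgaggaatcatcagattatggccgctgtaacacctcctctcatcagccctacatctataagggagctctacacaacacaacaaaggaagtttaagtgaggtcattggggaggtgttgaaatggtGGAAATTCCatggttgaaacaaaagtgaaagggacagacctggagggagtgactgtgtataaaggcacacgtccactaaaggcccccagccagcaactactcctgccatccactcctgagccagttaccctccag
In Cxcl10 the interferon-type match began 213 bases before the start, the NF-kB-like match 158 and the AP-1-like match 74 bases before it. In Il6 the AP-1-like match began 249 bases and the NF-kB-like match 43 bases before the start, and in Acod1 the NF-kB-like match 85 bases before it. A match is a description of the letters, not a shown binding site.

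The same motifs were counted in every promoter of that length. RefSeq promoters could be matched to 11115 of the tested genes (14115 promoters). The interferon-type motif was in 7.49% of these, in 17.9% of 661 promoters of genes risen past 4-fold, in 20.2% of 248 promoters of genes risen past 16-fold and in 8.61% of 581 promoters of genes fallen past 4-fold. For the NF-kB-like motif the shares were 6.20, 9.68, 10.9 and 4.82%, and for the AP-1-like motif 4.07, 9.08, 9.68 and 5.68%. Over all 32851 promoters of the table the shares were 8.56, 5.82 and 5.20%. By gene group, the interferon-type motif was in 10 of 11 promoters of guanylate-binding protein and immunity-related GTPase genes (90.9%) and 20 of 37 of interferon-stimulated genes (54.1%). The NF-kB-like motif was in 5 of 10 CXC chemokine promoters (50%) and 10 of 25 promoters of NF-kB pathway genes (40%). These shares describe the promoters and were not tested.

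**Figure D2:**
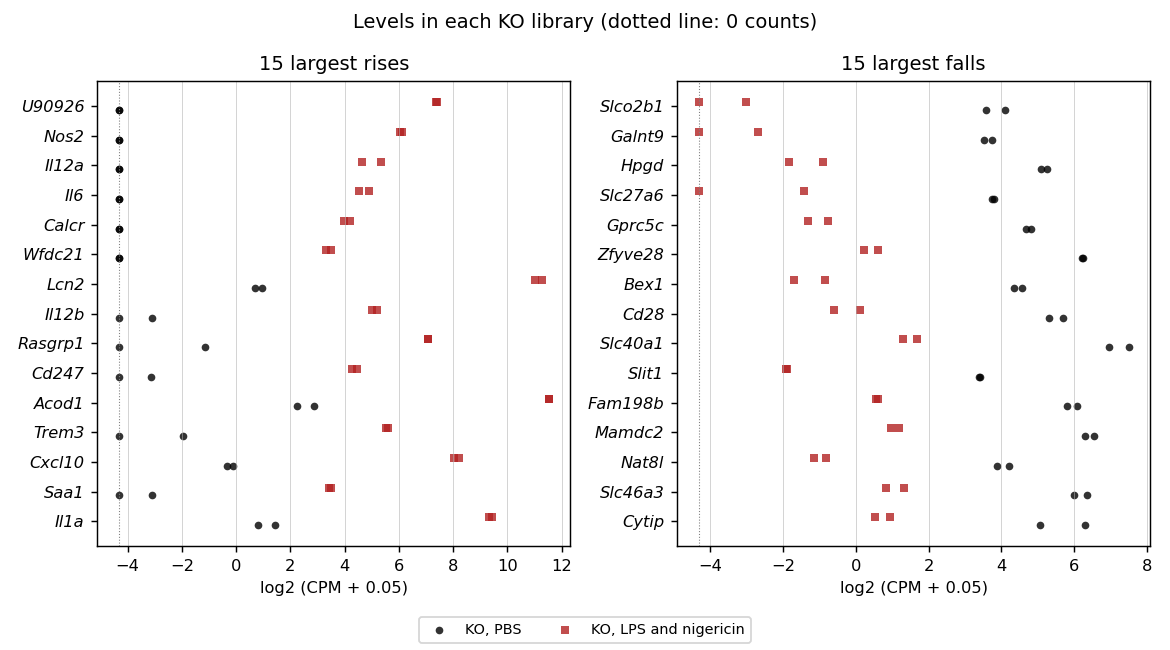
Level in each of the 4 KO libraries, as log2(CPM + 0.05), for the 15 largest rises and the 15 largest falls, with PBS and stimulated libraries in different colours and a dotted line at 0 counts. The PBS and stimulated points do not overlap for any of the 30 genes, as the rule that chose them required.

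The largest falls were taken from called genes that reached 10 CPM in the higher group, so clear levels in resting KO cells were required. Several encode transporters and enzymes of lipid or mediator turnover. Slco2b1, an organic anion transporter, went from 12 and 17 CPM with PBS to 0.0724 and 0 CPM after stimulation (-8.68 ± 0.85). Hpgd, which inactivates prostaglandins, went from 34.3 and 38.1 to 0.489 and 0.228 CPM (-6.68 ± 0.48). Slc40a1, ferroportin, the exporter of cellular iron, went from 125 and 181 to 3.13 and 2.39 CPM (-5.80 ± 0.25). In each case both stimulated libraries lay far below both PBS libraries, and the rule required that they not overlap. Slc27a6, a fatty acid transporter, fell by 6.46 ± 0.86 log2 units, and Galnt9, a glycosyltransferase, fell by 7.72 ± 0.90. Zfyve28, a negative regulator of EGF receptor signalling, went from 75.6 and 74.5 to 1.47 and 1.11 CPM (-5.87 ± 0.15), and the orphan receptor Gprc5c from 27.9 and 25.3 to 0.543 and 0.35 CPM (-5.91 ± 0.50). Some genes best known from T cells were among them. Cd28, a costimulatory receptor, went from 39.6 and 51.5 to 1.03 and 0.609 CPM (-5.81 ± 0.43), while the T and NK marker sum was 15.8 and 21.1 CPM with PBS and 5.16 and 5.25 CPM after stimulation. Cytip, a regulator of leukocyte adhesion, went from 78.9 and 33.7 to 1.86 and 1.38 CPM (-5.12 ± 0.45), with its PBS libraries further apart than those of the other falls. Also among the 15 were Bex1 (-5.85 ± 0.30), the guidance cue Slit1 (-5.59 ± 0.24), Fam198b (-5.42 ± 0.20), Mamdc2 (-5.38 ± 0.24), Nat8l, which makes N-acetylaspartate (-5.17 ± 0.23) and Slc46a3 (-5.14 ± 0.30). The largest adjusted p among the falls was 0.00112 (Slc27a6).

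In reads rather than folds, 1 gene stood above all others. Saa3, an acute-phase apolipoprotein of macrophages, took 168 and 174 CPM with PBS and 32304 and 31183 CPM after stimulation (7.54 ± 0.09). CPM values are not scaled to transcript length, so they show where the reads went and not how many transcripts a gene had. The chemokine Ccl5 went from 258 and 271 to 6925 and 6525 CPM (4.67 ± 0.11), and complement factor B, Cfb, from 44.4 and 44.2 to 4634 and 4689 CPM (6.72 ± 0.07). Complement C3 went from 321 and 323 to 3168 and 3154 CPM (3.30 ± 0.07). For these genes the spread between libraries of a group was small beside the change. Beta-2-microglobulin, B2m, rose by 1.27 ± 0.07, the macrophage marker Adgre1 (F4/80) by 1.39 ± 0.05 from 1621 and 1660 to 4353 and 4235 CPM, the actin-binding peptide gene Tmsb4x by 1.36 ± 0.22, Lgals3bp by 1.71 ± 0.07 and Ly6e by 2.53 ± 0.33. Among the 12 largest gains in mean CPM was also the ferritin heavy chain Fth1, but its PBS libraries held 12584 and 6940 CPM against 14748 and 14414 CPM after stimulation and the test did not pass (adjusted p = 0.28).

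Lysosomal and secreted macrophage products were among the 12 genes that lost the most reads. Psap, the precursor of saposins, which help lysosomal enzymes degrade sphingolipids, fell from 21302 and 23412 to 6462 and 6497 CPM (-1.79 ± 0.07). The membrane glycoprotein Gpnmb fell from 16398 and 17986 to 4664 and 4791 CPM (-1.86 ± 0.06). Cathepsin D, Ctsd, fell from 21443 and 23212 to 9970 and 9983 CPM (-1.16 ± 0.06). Both stimulated libraries lay below both PBS libraries in each case, as for 37.2% of all tested genes. Apoe, which carries lipids out of macrophages, fell by 1.69 ± 0.24. The selenium carrier Selenop fell from 3747 and 4171 to 308 and 317 CPM (-3.66 ± 0.08), and galectin-3, Lgals3, from 2993 and 3291 to 385 and 371 CPM (-3.06 ± 0.08). The ferritin light chain Ftl1 fell by 0.52 ± 0.11 log2 units, a call lost without KO PBS library 2 or stimulated KO library 1 (adjusted p up to 0.0612). Lyz2, the gene whose promoter drives Cre, stood at 16776 and 17514 CPM with PBS and 15405 and 14744 CPM after stimulation in KO cells (log2 fold change -0.19 ± 0.06, adjusted p = 0.0529) and at 32744 and 35400 and then 32222 and 34422 CPM in WT cells.

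**Figure D3:**
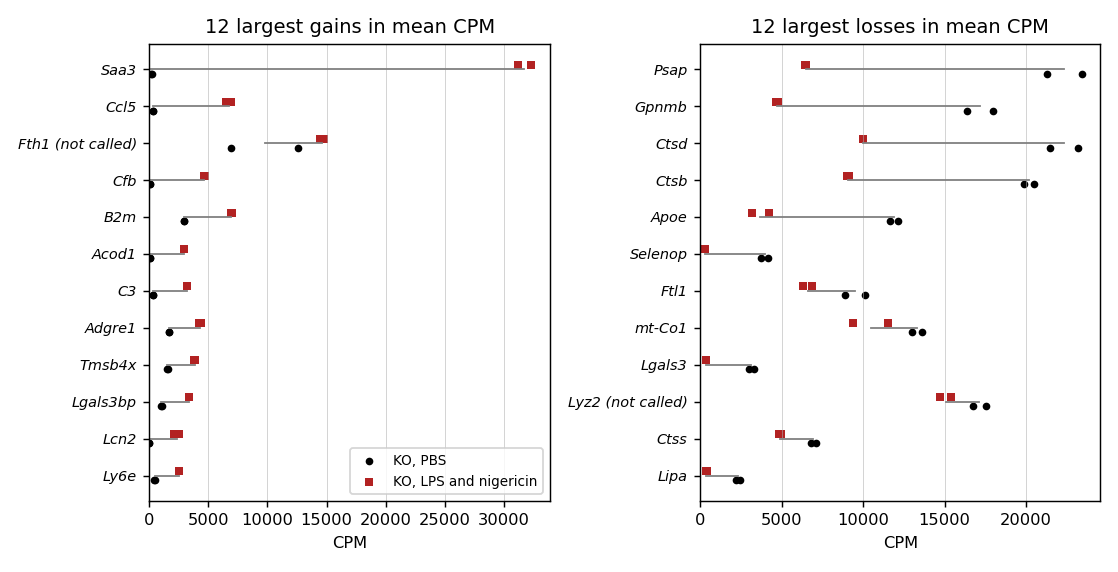
Level in CPM in each of the 4 KO libraries for the 12 genes with the largest gain and the 12 with the largest loss in mean CPM, with a grey line joining the group means. Saa3 moved from 168 and 174 to 32304 and 31183 CPM, and Psap, Gpnmb, Ctsd and Ctsb moved the other way.

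The genes of 50 groups, set by known function, are described next, from the inflammasome outward. Of 18 inflammasome and pyroptosis genes 10 rose and 4 fell, with a median log2 fold change of 0.54. Mefv, the pyrin sensor, had the largest rise, from 22.6 and 18.3 to 237 and 243 CPM (3.55 ± 0.12). Casp4, the mouse caspase that binds cytosolic LPS, went from 14.7 and 15.4 to 66.6 and 65.7 CPM (2.14 ± 0.08), and Casp1 from 51.5 and 54.4 to 122 and 129.8 CPM (1.25 ± 0.10). Each rose in both stimulated libraries by far more than the libraries of a group differed. The sensors did not move together. Nlrp1b, which anthrax lethal factor activates, fell from 46.6 and 36.8 to 16.3 and 15.2 CPM (-1.40 ± 0.17) and Naip5, a sensor of flagellin, was at 0.13 ± 0.10 (adjusted p = 0.363). Txnip, which binds thioredoxin and NLRP3, fell by 1.10 ± 0.19, and Ninj1, which ruptures the membrane of dying cells, stood at 182 and 265 CPM with PBS and 203 and 198 CPM after stimulation (-0.16 ± 0.30, adjusted p = 0.721).

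The interleukin-1 family and its antagonists gave 6 rises and 0 falls of 11 (median 1.26). Il1a stood at 1.7 and 2.68 CPM with PBS and 691 and 643 CPM after stimulation, and Il1b at 15.4 and 12.8 CPM with PBS and 1594 and 1398 CPM after stimulation. Il1rn, the receptor antagonist, went from 14.3 and 27.2 to 114 and 113 CPM (2.45 ± 0.35), with its PBS libraries further apart than its stimulated ones. Il18, which encodes another substrate of caspase-1, went from 3.08 and 3.78 to 8.59 and 9.79 CPM (1.42 ± 0.18). Il18bp, which neutralizes interleukin-18, stood at 43.9 and 55.1 CPM with PBS and 81.5 and 80.1 CPM after stimulation (0.71 ± 0.29, adjusted p = 0.0961). The groups did not overlap, as for 35.6% of all tested genes upward, but the test did not pass. It did pass in DESeq2 (adjusted p = 0.0249). Il1rl2, the receptor of interleukin-36, rose by 1.26 ± 0.18, and Il1rap, the shared accessory chain, by 0.39 ± 0.11, a call lost without PBS library 2 or 1 of the stimulated libraries, whichever it was (adjusted p up to 0.13). Il1r1 was at 0.17 ± 0.50 (adjusted p = 0.827).

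Other cytokines rose in 16 of 24 cases and fell in 5, with a median of 3.29. Il12b, the p40 chain shared by interleukin-12 and interleukin-23, went from 0.0681 and 0 to 36.9 and 32.5 CPM (9.95 ± 0.48). Il23a, the p19 chain, was at 0 counts with PBS and 0.398 and 0.457 CPM after stimulation, at least 17.4-fold higher, a call lost without either stimulated KO library. Csf3, the neutrophil growth factor, was at 0 with PBS and at 4.69 and 3.8 CPM, at least 169.9-fold higher. All stimulated libraries were above all PBS libraries for these genes, as for 35.6% of all tested genes. Igf1 fell from 695 and 749 to 178 and 187 CPM (-1.98 ± 0.06) and Osm, oncostatin M, from 51.1 and 83.1 to 24.5 and 17.3 CPM (-1.68 ± 0.30). Il15 (0.01 ± 0.10, adjusted p = 0.952) and Csf1 (-0.21 ± 0.17, adjusted p = 0.385) passed in neither direction.

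Chemokines showed large rises side by side with genes that did not pass. Of 13 CXC chemokines 9 rose and 1 fell (median 5.87), and of 14 CC chemokines 8 rose and 1 fell (median 3.18). The interferon-type ligands of CXCR3 rose in all 3 cases: Cxcl10 from 0.868 and 0.753 to 297 and 264 CPM (8.43 ± 0.19), Cxcl9 from 0.545 and 0.977 to 86.1 and 73.4 CPM (6.70 ± 0.37) and Cxcl11 from 0 counts to 2.99 and 2.53 CPM (at least 111-fold). They are neighbours on chromosome 5 (92321347 to 92365485, GRCm38). The neutrophil attractants Cxcl1 (5.98 ± 0.49) and Cxcl3 (7.19 ± 0.43) belong to a second cluster on that chromosome (90759360 to 90905938), in which 4 of 6 tested genes rose. Pf4, in the same cluster, stood at 15.8 and 16 CPM with PBS and 19.5 and 15.4 CPM after stimulation (0.13 ± 0.18, adjusted p = 0.612). Cxcl13, which guides B cells, was at 0 with PBS and at 0.85 and 0.883 CPM (at least 35.1-fold).

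Among CC chemokines, Ccl2, which attracts monocytes, rose by 4.76 ± 0.14 and Ccl12 by 6.61 ± 0.96, in a cluster on chromosome 11 (82035571 to 82116799) where 3 of 4 genes rose. Ccl3 (4.45 ± 0.28) and Ccl4 (4.60 ± 0.29) lie with Ccl5 in another (83525778 to 83664683), where 4 of 6 rose. Ccl6, inside that same cluster, went the other way, from 727 and 852 to 120.0 and 121 CPM (-2.71 ± 0.12). Ccl22, a ligand of CCR4, rose by 5.75 ± 0.96 with few counts. The fallen CXC member was Cxcl14 (-0.77 ± 0.18), a call lost without PBS library 1 or 1 of the stimulated libraries, whichever it was (adjusted p up to 0.0851).

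Receptors that guide migration split, with 6 rises and 8 falls of 19 (4 to 8 falls without 1 library, with 4 without stimulated KO library 1). The formyl peptide receptors, which sense bacterial peptides, rose from 4.07 and 4.9 to 618 and 602 CPM for Fpr1 (7.09 ± 0.19) and from 4.07 and 3.46 to 624 and 619.8 CPM for Fpr2 (7.37 ± 0.22). Ccrl2, an atypical chemerin receptor, rose by 2.70 ± 0.18 and Ccr7 by 5.89 ± 0.92. Cxcr4, the receptor of Cxcl12, fell from 580.3 and 415 to 28.2 and 26.7 CPM (-4.18 ± 0.18). The oxysterol receptor Gpr183 fell by 3.01 ± 0.17 and the anaphylatoxin receptor C3ar1 fell by 1.42 ± 0.05 from 1501 and 1466 to 544 and 562 CPM, while C5ar1 was at -0.18 ± 0.12 (adjusted p = 0.278).

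**Figure D4:**
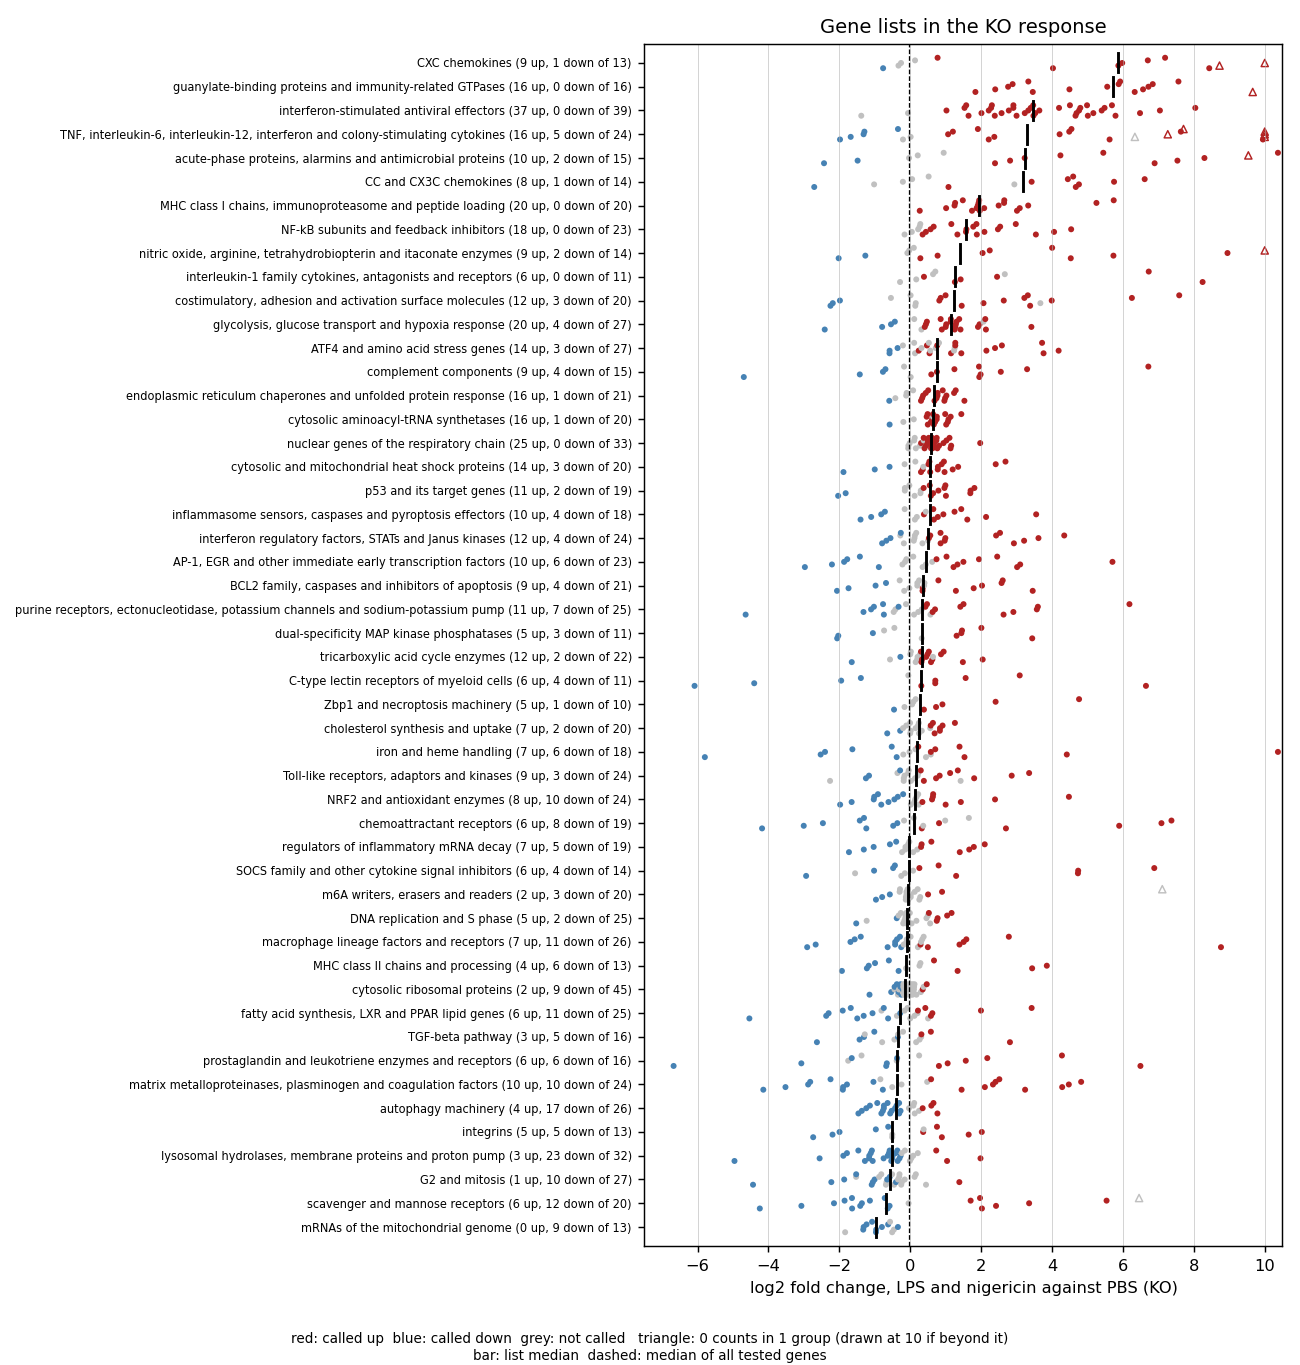
Log2 fold changes of the KO response for the tested members of 50 gene groups, 1 point per gene, with a bar at each group's median and a dashed line at the median of all tested genes, -0.03. Triangles are genes with 0 counts in 1 group, drawn at no more than 10. The interferon-stimulated, guanylate-binding and CXC chemokine groups lie to the right and the lysosomal group to the left.

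Toll-like receptors and their adaptors gave 9 rises and 3 falls of 24, and 6 rises and 5 falls when scaled by library size alone. Tlr1 went from 33 and 47.5 to 295 and 291 CPM (2.86 ± 0.19) and Tlr2 from 179 and 142 to 564 and 558 CPM (1.80 ± 0.13). Tlr13, which senses bacterial ribosomal RNA in endosomes, fell from 591 and 624 to 256 and 254 CPM (-1.25 ± 0.07). Stimulated and PBS libraries did not overlap for any of the 3, as for 35.6% of all tested genes upward and 37.2% downward. Tlr8 fell by 1.16 ± 0.10, and Tlr7 was at 138 and 268 CPM in the stimulated libraries, which straddled the PBS value of library 1 (241 and 281 CPM). Cd14 rose by 1.12 ± 0.09, Myd88 by 1.34 ± 0.07 and Irak3, an inhibitor of the pathway, by 3.35 ± 0.28. The TRIF gene Ticam1 was at -0.16 ± 0.11 (adjusted p = 0.274).

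Genes of NF-kB signalling and their feedback inhibitors mostly rose. In that group 18 of 23 genes rose and 0 fell (median 1.57). Nfkbia, the inhibitor of NF-kB, went from 63.3 and 59.4 to 752 and 679 CPM (3.54 ± 0.09), and both stimulated libraries lay far above both PBS libraries. Nfkbiz, a nuclear cofactor, rose by 4.54 ± 0.17 and the adaptor Traf1 by 4.06 ± 0.15. Tnfaip3 (A20) rose by 2.98 ± 0.38, with 741 and 330.1 CPM in the stimulated libraries, which differed widely. The subunit gene Rela was at 0.04 ± 0.06 (adjusted p = 0.643). Of 14 genes that restrain cytokine signalling 6 rose and 4 fell (2 to 5 falls without 1 library, with 2 without stimulated KO library 2). Socs3 went from 5.67 and 4.68 to 639.7 and 582 CPM (6.88 ± 0.16) and Usp18, which removes ISG15 from proteins and blocks interferon receptors, from 8.44 and 13.3 to 296 and 284 CPM (4.74 ± 0.27). Socs2 fell from 2.93 and 2.02 to 0.434 and 0.213 CPM (-2.94 ± 0.40).

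The MAP kinase phosphatases gave 5 rises and 3 falls of 11. Dusp2, which acts on ERK and p38, rose by 3.44 ± 0.29 and Dusp16, which acts on JNK, by 2.01 ± 0.22. Dusp3 fell from 141 and 147 to 34.3 and 36 CPM (-2.03 ± 0.17) and Dusp5, an ERK phosphatase, fell by 2.06 ± 0.29. Genes of mRNA decay also split, 7 up and 5 down of 19 (median -0.03, near that of all genes). Zfp36 (tristetraprolin), which destabilizes cytokine mRNAs, went from 266 and 320.1 to 1098 and 933 CPM (1.79 ± 0.14), whereas its relatives Zfp36l1 (-1.73 ± 0.14) and Zfp36l2 (-1.31 ± 0.07) fell. The RNases Zc3h12a (1.40 ± 0.09) and Zc3h12c (2.10 ± 0.36) rose. Cnot1, the scaffold of the deadenylase complex, stood at 131 and 128 CPM with PBS and 123 and 126 CPM after stimulation (-0.06 ± 0.11, adjusted p = 0.7).

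Genes of interferon signalling rose more often than they fell. Of 24 receptors, kinases and transcription factors of the pathway 12 rose and 4 fell. The falls numbered 0 without KO PBS library 1, and 1 without KO PBS library 2 and without each stimulated KO library. Irf7 went from 42 and 43.8 to 839 and 903 CPM (4.34 ± 0.11) and Stat2 from 36.3 and 45 to 222 and 213 CPM (2.42 ± 0.17). Both stimulated libraries lay well above both PBS libraries. Jak2 rose by 2.92 ± 0.08 and Irf1 by 2.53 ± 0.26. Irf8 fell by 0.79 ± 0.21, a call lost without any 1 of the 4 KO libraries (adjusted p up to 0.0957). Ifngr1, a chain of the interferon gamma receptor, fell by 0.68 ± 0.17, a call lost without PBS library 1, PBS library 2 or stimulated library 2 of the KO cells (up to 0.0865).

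Of 39 interferon-stimulated effectors 37 rose and 0 fell (median 3.47), with 1 fall without stimulated WT library 1 and without stimulated WT library 2. Slfn4 went from 0.647 and 1.62 to 290.1 and 311 CPM (8.04 ± 0.40), and Isg15, a ubiquitin-like modifier, from 10.6 and 12.7 to 1028 and 1050 CPM (6.48 ± 0.15). Ifit1, which binds foreign RNA caps, went from 7.34 and 12.5 to 508 and 517 CPM (5.69 ± 0.31), in a cluster on chromosome 19 (34550694 to 34650009) where all 6 tested genes rose. Ifi207 (-0.06 ± 0.14, adjusted p = 0.76) was among those that did not pass. In the stretch of the Oas cluster on chromosome 5 (120730333 to 120907521) 6 of 8 tested genes rose, and Oas1h and the predicted gene Gm43068 did not pass.

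Guanylate-binding proteins and immunity-related GTPases, which attack the membranes of intracellular microbes, rose in all 16 tested cases (median 5.72). Gbp5 went from 1.94 and 3.08 to 289 and 287 CPM (6.84 ± 0.23), Gbp6 by 6.72 ± 0.35 and Gbp10 by 7.57 ± 0.18, while Gbp2b was at 0 counts with PBS and at 1.14 and 2.18 CPM after stimulation (at least 68.8-fold). Tgtp1 (6.33 ± 0.29) and Tgtp2 (6.57 ± 0.32) are near-identical genes that may share counts. On chromosome 3 (142493978 to 142638008) 5 of 6 genes of the Gbp cluster rose and on chromosome 5 (105014150 to 105293698) all 6.

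Antigen presentation by class I and class II molecules differed in its calls. All 20 class I genes rose (median 1.95). H2-T22 went from 72.4 and 84.2 to 789 and 783 CPM (3.33 ± 0.11), the peptide transporter Tap1 from 30.3 and 35.3 to 273 and 256 CPM (3.01 ± 0.17) and the immunoproteasome subunit Psmb8 from 51.1 and 60.3 to 371 and 329 CPM (2.65 ± 0.12). Of 13 class II genes 4 rose (2 to 4 without 1 library, with 2 without KO PBS library 2 or stimulated KO library 1) and 6 fell. The class II regulator Ciita fell from 27.5 and 40.2 to 6.15 and 11.6 CPM (-1.93 ± 0.41), H2-Aa from 744 and 865 to 354 and 359 CPM (-1.17 ± 0.12), and H2-Eb1 fell by 1.22 ± 0.20. H2-Ab1, the partner chain of H2-Aa, stood at 439 and 519 CPM with PBS and 567 and 579.6 CPM after stimulation (0.26 ± 0.13, adjusted p = 0.173). Its stimulated libraries lay above its PBS libraries, as for 35.6% of all tested genes, but no rise was called. H2-Oa, a chain of the peptide-editing inhibitor H2-O, rose by 3.44 ± 0.67.

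Costimulatory and adhesion molecules gave 12 rises and 3 falls of 20 (median 1.22). Cd69, an early activation marker, went from 0.221 and 0.224 to 45.4 and 41.1 CPM (7.59 ± 0.14), and Cd38, which consumes NAD, from 6.18 and 6.94 to 497 and 503 CPM (6.25 ± 0.10). Cd40 rose by 3.99 ± 0.13, Icam1 by 3.38 ± 0.06 and Icosl by 3.32 ± 0.14. Cd83, a marker of mature dendritic cells, fell from 57 and 46.5 to 12 and 9.73 CPM (-2.25 ± 0.18), and the checkpoint receptor Havcr2 (TIM-3) fell by 2.19 ± 0.19. Among integrins 5 rose and 5 fell of 13: Itgal rose by 2.02 ± 0.08 and Itga5, a fibronectin receptor chain, by 1.65 ± 0.14, while Itgb3 (-2.74 ± 0.16), Itga6 (-2.19 ± 0.13) and Itgb5 (-2.0 ± 0.07) fell.

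Receptors for uptake fell more often than they rose, 12 against 6 of 20 (median -0.68). Marco, a scavenger receptor for bacteria, went up from 12.4 and 12 to 582 and 551 CPM (5.54 ± 0.07) and Fcgr1, the high-affinity Fc receptor, from 160.2 and 165 to 868 and 870.4 CPM (2.42 ± 0.08). Cd5l, a secreted lipid-binding protein, fell from 234 and 247 to 29.6 and 27.6 CPM (-3.07 ± 0.08) and the collectin Colec12 fell by 2.15 ± 0.12. Axl, a receptor for dying cells, was at -0.05 ± 0.11 (adjusted p = 0.763). The C-type lectins gave 6 rises and 4 falls of 11. Clec4e (Mincle), a receptor for mycobacterial glycolipid, went from 13.9 and 11.7 to 1285 and 1284 CPM (6.65 ± 0.20), Clec7a (Dectin-1), the beta-glucan receptor, from 598 and 660.3 to 28.2 and 31.2 CPM (-4.40 ± 0.14), and Clec10a by -6.09 ± 1.26. 

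Among macrophage core genes 7 rose and 11 fell of 26 (median -0.10). Cebpa, a transcription factor of the myeloid lineage, fell from 244 and 205 to 32.9 and 26.9 CPM (-2.91 ± 0.14), while Cebpd rose from 17.4 and 16 to 51.4 and 48.5 CPM (1.58 ± 0.11). Trem1, which amplifies inflammation, rose by 2.78 ± 0.41, and the integrin chain Itgam (CD11b) stood at 448 and 387 CPM with PBS and 623 and 461 CPM after stimulation (0.38 ± 0.42, adjusted p = 0.522).

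Of 14 genes of nitric oxide, arginine, tryptophan and itaconate metabolism 9 rose and 2 fell, 1 of them in fits without any 1 of the 4 KO or 2 WT PBS libraries (median 1.41). The arginine transporter Slc7a2 went from 12.9 and 14.2 to 570.4 and 869 CPM (5.73 ± 0.31), and Ass1, which recycles citrulline to arginine, from 6.66 and 7.03 to 159 and 157 CPM (4.53 ± 0.09). Arg1, which competes for arginine, rose by 4.0 ± 0.85 but from 0 and 0.128 to 1.01 and 1.14 CPM. Sat1, of polyamine breakdown, fell by 1.27 ± 0.15, and Odc1, of polyamine synthesis, was at -0.03 ± 0.13 (adjusted p = 0.887).

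Of 27 glycolysis and hypoxia genes 20 rose and 4 fell (1 to 3 falls without 1 library, with 1 or 2 without any KO library or any WT PBS library), and the median was 1.14. The hexose transporter Slc2a6 went from 26.6 and 26.1 to 282 and 282 CPM (3.42 ± 0.08), and Pfkfb3, which makes the activator of phosphofructokinase, from 37.2 and 37.6 to 184 and 145 CPM (2.13 ± 0.26). Pfkl rose by 2.12 ± 0.08 and the lactate exporter Slc16a3 by 1.96 ± 0.12. Vegfa, a hypoxia target, went the other way, from 144 and 142 to 25.5 and 28.1 CPM (-2.41 ± 0.08).

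In the tricarboxylic acid cycle 12 of 22 genes rose and 2 fell (1 to 2 without 1 library, with 1 without KO PBS library 2, either stimulated KO library or either WT PBS library), with a median of 0.32. The largest fall was Idh1, listed here although it encodes the cytosolic isocitrate dehydrogenase and not the enzyme of the cycle. Idh1 went from 379 and 423 to 127 and 128 CPM (-1.65 ± 0.07), beside rises of Idh3a (0.87 ± 0.08), Mdh2 (1.48 ± 0.08) and Pcx (2.04 ± 0.16). Sdha, the succinate dehydrogenase subunit, stood at 223 and 231 CPM with PBS and 225 and 229 CPM after stimulation (0.0 ± 0.06, adjusted p = 0.993).

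Respiratory chain mRNAs of the nuclear and the mitochondrial genome moved apart. Of 33 nuclear genes 25 rose and 0 fell (median 0.59), with Cycs, cytochrome c, at 32.3 and 35 CPM with PBS and 129 and 135 CPM after stimulation (1.97 ± 0.09), Cyc1 at 1.15 ± 0.09 and Atp5b at 1.02 ± 0.06. Of 13 mitochondrial mRNAs 0 rose and 9 fell (median -0.96). The cytochrome b gene mt-Cytb stood at 2425 and 2325 CPM with PBS and 967 and 926 CPM after stimulation (-1.33 ± 0.07), and mt-Nd4 at 1297 and 1415 CPM with PBS and 648 and 505 CPM after stimulation (-1.23 ± 0.12). The ribosomal RNAs of the same genome went the other way: mt-Rnr1 from 303 and 313 to 867 and 832 CPM (1.46 ± 0.08) and mt-Rnr2 from 352 and 392 to 927 and 897 CPM (1.29 ± 0.09). In stimulated KO library 2, mt-Co2 (1965 and 2685 CPM with PBS and 2148 and 1114 CPM after stimulation, adjusted p = 0.251) and mt-Co3 (1727 and 2322 CPM with PBS and 1996 and 941 CPM after stimulation, adjusted p = 0.3) lay well below stimulated library 1, and that library also had the lowest mitochondrial share. The fall of mt-Co1 (-0.35 ± 0.09) was lost without PBS library 1, PBS library 2 or stimulated library 2 of the KO cells (adjusted p up to 0.101). Nuclear copies of mitochondrial genes may share these counts.

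Genes of tRNA charging and protein folding rose more often than they fell, and ribosomal protein genes did not. Of 20 aminoacyl-tRNA synthetases 16 rose and 1 fell (median 0.65), with Aars from 76 and 73.9 to 204 and 203 CPM (1.44 ± 0.07) and Tars from 34.5 and 33.3 to 74.5 and 74.8 CPM (1.14 ± 0.07), and Qars as the fall (-0.58 ± 0.10), beside 2 falls with library size alone. Of 21 genes of the unfolded protein response 16 rose and 1 fell (median 0.68), with Hyou1 at 1.53 ± 0.09 and Hspa5 (BiP), the main chaperone of the endoplasmic reticulum, from 476 and 491 to 949 and 961 CPM (0.98 ± 0.06). The fall was Atf6, one of its sensors (-0.59 ± 0.10). Of 20 heat shock genes 14 rose and 3 fell (median 0.55). Stip1 rose by 1.35 ± 0.08 and Hspa1a by 2.69 ± 0.24, and Hspb1 (-1.88 ± 0.31) and Dnajb4 (-1.0 ± 0.08) fell. Of 45 ribosomal protein genes 2 rose and 9 fell (median -0.14), a count of falls that ranged from 4 to 12 without 1 library, with 4 or 5 without each KO library, and was 21 with library size alone. Its rises were 1 or 2 in each fit without 1 library. Rpl10a fell by 1.15 ± 0.13 and Rpl3 fell by 0.54 ± 0.07.

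The ATF4 group, which serves amino acid supply under stress, gave 14 rises and 3 falls of 27 (1 to 3 falls without 1 library, with 1 without stimulated KO library 2). Nupr1, a stress-induced nuclear protein, went from 4.09 and 7.62 to 104 and 109.6 CPM (4.19 ± 0.27), the serine synthesis gene Phgdh from 1.77 and 1.36 to 23.3 and 19.2 CPM (3.76 ± 0.26), and Asns, asparagine synthetase, from 4.38 and 5.38 to 27.9 and 30.7 CPM (2.58 ± 0.18). Atf4 itself stood at 134 and 131 CPM with PBS and 297 and 138 CPM after stimulation (0.72 ± 0.32, adjusted p = 0.12). Its stimulated library 2 was at the PBS level, and the gene passed in DESeq2 (adjusted p = 0.0334). Atf3 fell by 0.58 ± 0.09.

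Antioxidant genes split. In the NRF2 group 8 rose and 10 fell of 24 (6 to 9 falls without 1 library, with 6 without stimulated KO library 2). Sod2, the mitochondrial superoxide dismutase and also an NF-kB target, went from 76.7 and 56.6 to 1656 and 1310 CPM (4.48 ± 0.19), and the cystine transporter Slc7a11 from 15.8 and 8.52 to 61.6 and 66.1 CPM (2.39 ± 0.41). Gclm, which limits glutathione synthesis, fell from 162 and 146 to 33.9 and 44.1 CPM (-1.98 ± 0.15), catalase, Cat, from 614 and 665 to 206 and 201 CPM (-1.65 ± 0.07) and sulfiredoxin, Srxn1, from 210.0 and 175 to 95.9 and 92.7 CPM (-1.03 ± 0.10). Prdx1 stood at 1288 and 1330 CPM with PBS and 1409 and 1427 CPM after stimulation (0.12 ± 0.07, adjusted p = 0.227).

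Iron and heme genes gave 7 rises and 6 falls of 18, a balance that turned to 6 and 7 with library size alone. Its largest movers besides Lcn2 and Slc40a1 were ceruloplasmin, Cp, from 11 and 12 to 238 and 255 CPM (4.42 ± 0.12), the transferrin receptor Tfrc, from 136 and 181 to 28.4 and 26.6 CPM (-2.53 ± 0.15), and transferrin, Trf, from 505 and 521 to 92.8 and 101 CPM (-2.41 ± 0.09).

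Lysosomal genes fell in 23 of 32 cases and rose in 3 (median -0.52), and their summed level went from 92760 and 99000 to 49620 and 49750 CPM. Atp6v0d2, a subunit of the proton pump, stood at 845 and 893 CPM with PBS and 29.5 and 26.4 CPM after stimulation. The acid lipase Lipa stood at 2173 and 2429 CPM with PBS and 388 and 393 CPM after stimulation, and Tfeb, the transcription factor of lysosomal genes, at 61.8 and 72.1 CPM with PBS and 23.9 and 24.6 CPM after stimulation (-1.47 ± 0.18). Exceptions were Ctsc, which activates serine proteases, from 316 and 302 to 1211 and 1227 CPM (1.98 ± 0.06), and Ctsz, from 1638 and 1772 to 3508 and 3497 CPM (1.04 ± 0.07). Of 26 autophagy genes 17 fell and 4 rose (median -0.41). The kinases Ulk1 (-1.14 ± 0.11) and Ulk2 (-1.24 ± 0.11) and the receptor Optn (-1.46 ± 0.17) fell, and Atg5 (0.65 ± 0.09) and Atg9a (0.77 ± 0.10) rose.

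Lipid handling genes fell in 11 of 25 cases and rose in 6 (median -0.28). The droplet coat gene Plin2 went from 1028 and 1210 to 215 and 217 CPM (-2.37 ± 0.10) and Fabp5 from 1503 and 1701 to 427 and 428 CPM (-1.91 ± 0.09). Ch25h, which makes an antiviral oxysterol, rose by 3.42 ± 0.21, and Nr1h3 (LXR alpha) from 49.6 and 51.3 to 204 and 198 CPM (1.99 ± 0.07), while the exporter Abca1, one of its targets, was at -0.38 ± 0.16 (adjusted p = 0.111). In cholesterol synthesis and uptake 7 of 20 rose and 2 fell. Falls numbered 0 or 1 in each fit without 1 library. Of 16 eicosanoid genes 6 rose and 6 fell (6 and 7 with library size alone). The inducible route of prostaglandin E2 rose, with Ptges from 4.38 and 4.79 to 411 and 415 CPM (6.49 ± 0.14) and Ptgs2 (COX-2) from 12.6 and 19.4 to 360.1 and 261 CPM (4.28 ± 0.32), while the constitutive Ptgs1 (-3.07 ± 0.19) and the prostaglandin D synthase Hpgds (-1.65 ± 0.07) fell.

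Immediate early genes gave 10 rises and 6 falls of 23. Egr1 went from 12.8 and 20.6 to 948 and 793 CPM (5.70 ± 0.35) and Ier2 by 3.01 ± 0.11. Fos stood at 194 and 275 CPM with PBS and 230.3 and 193 CPM after stimulation (-0.15 ± 0.22, adjusted p = 0.643), with overlapping groups, and Fosb fell from 26.6 and 36 to 4.72 and 3.26 CPM (-2.97 ± 0.29). Nr4a2, an orphan nuclear receptor, fell by 2.21 ± 0.25.

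Mitotic genes fell in 10 of 27 cases (median -0.58), with 3 to 5 falls without any 1 of the 4 KO libraries and 6 without either WT PBS library. Cenpa, the centromere histone, went from 40.2 and 31.5 to 1.54 and 1.77 CPM (-4.44 ± 0.20) and Ube2c, which acts at mitotic exit, from 5.75 and 4.15 to 2.01 and 1.43 CPM (-1.53 ± 0.29). Mki67, the proliferation antigen, was the exception (2 rises without KO PBS library 1), from 39.7 and 31.4 to 93 and 92.8 CPM (1.38 ± 0.24). A cell cycle homology region-like motif (TTTGAA, both strands) was in 17 of 22 promoters of this group (77.3%), against 12.6% of promoters of tested genes. In S phase 5 rose (2 to 6 without 1 library, with 2 or 3 without each KO library) and 2 fell (1 to 3, with 1 without KO PBS library 1 or stimulated KO library 2) of 25. E2f1 rose by 1.04 ± 0.10, and Cdt1, which licenses origins, fell by 1.52 ± 0.23.

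Of 19 p53 targets 11 rose and 2 fell (median 0.55), with Fas, a death receptor, from 7.1 and 7.72 to 26.4 and 25.5 CPM (1.81 ± 0.15) and Gadd45b by 1.69 ± 0.16, and Sesn1 at -2.04 ± 0.18. In the BCL2 and caspase group 9 rose and 4 fell of 21. The survival gene Bcl2a1a went from 11.7 and 13.1 to 138 and 133 CPM (3.45 ± 0.11), a near-copy of other Bcl2a1 genes with which it may share counts, and Cflar, which restrains caspase-8, from 92.7 and 84 to 532 and 521 CPM (2.58 ± 0.08). The BH3-only killers Bmf (-2.07 ± 0.11) and Bcl2l11 (BIM, -1.74 ± 0.19) fell and Pmaip1 (NOXA) rose by 2.02 ± 0.44. In the necroptosis group 5 rose and 1 fell of 10, with 3 rises without any 1 of the 4 KO libraries. Mlkl, which breaches the membrane, went from 12.9 and 16.2 to 76.1 and 78.3 CPM (2.41 ± 0.12) and its kinase Ripk3 from 9.47 and 10.7 to 20.6 and 17.3 CPM (0.91 ± 0.14). Ripk1 fell by 0.46 ± 0.07. Casp8 was at 0.39 ± 0.10 and Tlr3 at 0.73 ± 0.22, calls lost without any 1 of the 4 KO libraries (adjusted p up to 0.182).

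Complement genes gave 9 rises and 4 falls of 15. C1ra went from 19.8 and 24.1 to 87.8 and 81.5 CPM (1.95 ± 0.12) and C2 by 2.55 ± 0.33. C1qa stood at 1115 and 1106 CPM with PBS and 1118 and 1121 CPM after stimulation (0.01 ± 0.08, adjusted p = 0.929). Of 15 acute-phase and alarmin genes 10 rose and 2 fell (median 3.23), and their sum, most of it Saa3, went from 571 and 517 to 36200 and 34940 CPM. Haptoglobin, Hp, rose from 27.7 and 26.9 to 1033 and 1348 CPM (5.45 ± 0.16), and S100a4 fell from 223 and 204 to 37.9 and 41 CPM (-2.43 ± 0.11).

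Proteases and their inhibitors were even, 10 up and 10 down of 24 (10 and 12 with library size alone). Mmp14, a membrane collagenase, went from 109.8 and 126 to 1119 and 1106 CPM (3.24 ± 0.09), and coagulation factor X, F10, from 24.7 and 24.4 to 535 and 555 CPM (4.47 ± 0.09). Mmp27 (-4.15 ± 0.26) and Mmp8 (-3.52 ± 0.16), the latter also a neutrophil marker, fell. Of 25 purine receptor and potassium channel genes 11 rose and 7 fell. The adenosine receptor Adora2a went from 1.33 and 1.31 to 95.8 and 96.5 CPM (6.18 ± 0.09) and Adora2b by 3.60 ± 0.63, while P2rx7, the ATP receptor that also triggers NLRP3, fell from 112 and 128 to 49.2 and 46.8 CPM (-1.32 ± 0.17). Entpd1 (CD39), which degrades extracellular ATP, fell from 291 and 304 to 10.7 and 13 CPM (-4.65 ± 0.11).

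In the m6A machinery beside Mettl3, Wtap, an adaptor of the writer complex, went from 65.4 and 90.6 to 139.7 and 151 CPM (0.90 ± 0.18), and the readers Ythdf3 (-0.79 ± 0.10) and Igf2bp2 (-0.97 ± 0.15) fell, as did the writer component Rbm15b (-0.58 ± 0.08). The group counted 2 rises and 3 falls of 20, and the rises were 1 to 4 without 1 library (1 without KO PBS library 1 or 2 or stimulated KO library 1, and 4 without stimulated WT library 2) and 1 with library size alone. Of 16 TGF-beta genes 3 rose and 5 fell (3 falls without stimulated KO library 2). Tgfbi, an extracellular matrix protein, went from 326 and 297 to 2168 and 2202 CPM (2.81 ± 0.08), and the receptors Tgfbr1 (-1.43 ± 0.10) and Tgfbr2 (-1.01 ± 0.06) fell.

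Last, the KO response was set against that of WT macrophages, in which 7082 genes passed (40.5%, 20.6% up and 20.0% down). The test of the difference between the responses, an interaction term in the same fit, called 87 genes (0.498%), 18 with a higher (0.103%) and 69 with a lower log2 fold change in KO (0.395%), and 1872 had an unadjusted p under 0.05. Of the 69, 26 rose in KO, 34 fell in KO and 9 passed in neither direction, and of the 18, 11 rose, 4 fell and 3 passed in neither. Both counts depended on single libraries: without stimulated KO library 1 they were 5 and 15, without stimulated KO library 2 they were 7 and 18, and over all fits without 1 library 5 to 31 and 15 to 68. DESeq2 called 192 and 294.

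Zfp180, a zinc finger gene, moved in opposite directions. In KO cells it went from 27.8 and 27.5 to 4.99 and 5.48 CPM (-2.40 ± 0.17), in WT cells from 4.9 and 3.47 to 24.9 and 24 CPM (2.55 ± 0.17), a difference of -4.95 ± 0.24 (adjusted p = 0.00178 in edgeR's test). KO cells with PBS thus stood near the level of stimulated WT cells. The antioxidant gene Prdx1, not called in KO, went from 1198 and 1236 to 3690 and 4138 CPM in WT cells (difference -1.57 ± 0.10, adjusted p = 0.00293). The fatty acid desaturase Scd2 rose by 0.42 ± 0.08 in KO and 2.23 ± 0.08 in WT cells (difference -1.80 ± 0.12), and the chaperone Dnajb4 stood at -1.0 ± 0.08 in KO and 0.49 ± 0.08 in WT cells (difference -1.49 ± 0.11). Some induced genes rose by less in KO cells: Marco by 5.54 ± 0.07 against 7.63 ± 0.08, Ass1 by 4.53 ± 0.09 against 6.67 ± 0.10, and Tgfbi by 2.81 ± 0.08 against 4.29 ± 0.09. The mitochondrial ribosomal RNA mt-Rnr1 was the clearest case of the other direction, at 1.46 ± 0.08 in KO and -0.56 ± 0.08 in WT cells (difference 2.03 ± 0.12, adjusted p = 0.00268). All 8 of these differences, Zfp180 to mt-Rnr1, were kept in the 8 fits without 1 library. Cd14 rose in KO (1.12 ± 0.09) and stood at -0.01 ± 0.09 in WT cells (difference 1.13 ± 0.13), a call kept in 2 of the 8 fits.

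**Figure D5:**
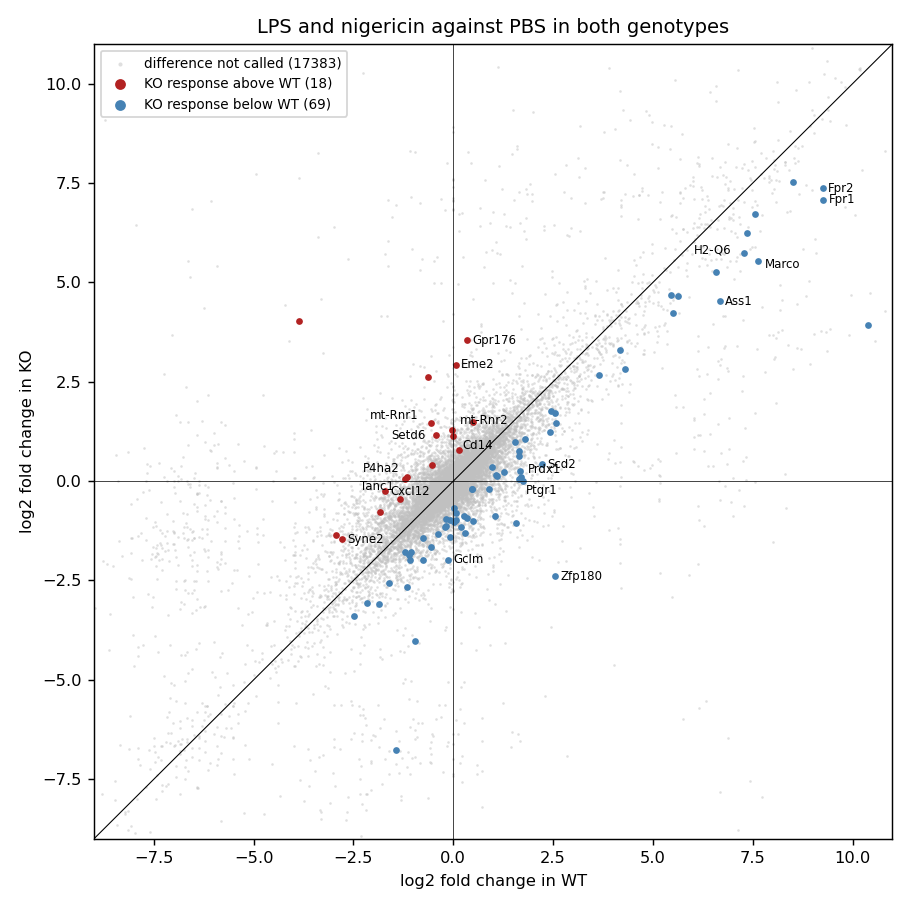
Log2 fold change of stimulation in WT (x axis) against KO macrophages (y axis) for all tested genes, with the 18 genes called higher in KO in red and the 69 called lower in blue, and 51 genes outside the axes. Zfp180 lies in the quadrant of genes that fell in KO and rose in WT.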

How the data were processed

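Per the labels' protocols, RNA came from a Trizol extraction and went into the Fast RNA-seq Lib Prep Kit V2. The deposited values are whole-number read counts per gene and library, used as the authors deposited them. The build mm10 and the tools Bowtie2, Trimmomatic and edgeR, without versions, are named per the submitters' processing notes. Counting tool, annotation and strand setting: not given in the sources used here. Hence reads of overlapping or antisense genes cannot be told apart, and near-identical genes may share counts. Symbols came from GENCODE M21 for 55141 of 55401 genes.

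The filterByExpr function of edgeR, at a count minimum of 10 and a total minimum of 15, left 17470 genes. All 8 libraries were fitted together by edgeR's quasi-likelihood test (edgeR 4.0.16, R 4.3.3) with TMM factors, with a mean for each group (4 residual degrees of freedom), and p-values were adjusted by Benjamini and Hochberg over all tested genes of a contrast at 0.05. Values are CPM of the TMM-scaled library, and each standard error divides the log2 fold change, without shrinkage, by the square root of the F statistic. Folds against a group at 0 counts are lower bounds from a floor of 3 counts over the group, and cover counting error only. The script was tested on simulated counts. Total counts were 55032057 to 65487739 per library. The chi-square per degree of freedom between libraries of a group was 39.33 to 81.09, and none repeats another.

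The comparison, gene lists (50 by function and 9 of other cells' markers) and naming rule were chosen with earlier results of these data known. Named were the 15 largest rises and 15 largest falls among called genes whose higher group reached 10 CPM and whose libraries did not overlap, the 12 largest gains and losses in mean CPM, and per list up to 6 called members with the largest change, 2 that moved against the majority and 2 not called with the highest level. The 10 largest differences between genotypes in each direction and 13 genes of the study's theme were added. Macrophage markers and genes named for their list in the opening are the exceptions, and a few genes the rule names are not reported here. Promoters were RefSeq's (GRCm38.p6), 14115 matched to 11115 tested genes.

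Alternatives were DESeq2's size factors, library size alone, DESeq2 1.42.0, limma-voom (limma 3.58.1), no low-count filter or one of 5 CPM in 2 libraries, a fit of the compared groups alone, a test against a fold of 2, a block for the replicate number, and fits that each omit 1 library. Figures used matplotlib 3.10.9 in Python 3.11.15.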

Additional observations from a re-analysis of the deposited data

Results flagged for a closer look

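The 47 named genes below passed the test of the difference between the KO and the WT response (edgeR's quasi-likelihood interaction term, Benjamini-Hochberg adjusted over all genes), and values are KO minus WT on the log2 scale. Of them 36 were lower and 11 were higher in KO, and 10 also passed in each of the 8 fits with 1 library omitted.

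Kept in all 8 fits were Zfp180 (-4.95), the citrulline-using Ass1 (-2.14), the scavenger receptor Marco (-2.09), the desaturase Scd2 (-1.80), the antioxidant Prdx1 (-1.57), H2-Q6 (-1.55) and H2-Q7 (-1.34) of the class I family, which may share counts, the chaperone Dnajb4 (-1.49), the matrix protein Tgfbi (-1.48) and the mitochondrial rRNA mt-Rnr1 (2.03). H2-Q6 rose by 5.74 in KO and 7.29 in WT cells and H2-Q7 by 5.25 and 6.59.

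Kept in 5 to 7 fits were Ptgr1, a reductase of lipid mediators (-1.59), mt-Rnr2 (1.32), the nuclease subunit Eme2 (2.87), Vwf (-1.22), catalase, Cat (-1.10), the integrin chain Itgax (-1.05), Saa3 (-0.98) and complement factor B, Cfb (-0.84). Itgax went from 259 and 287 to 136 and 142 CPM in KO and from 218 and 230.3 to 239 and 234 CPM in WT cells. Vwf, most of the endothelial marker sum, went from 130.3 and 143 to 16.3 and 15.7 CPM in KO and from 44.8 and 45.8 to 12.5 and 12.3 CPM in WT cells, and the part of other cells in it was not tested.

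In 2 to 4 fits the call was kept for Fpr1 (-2.18), Gclm (-1.85), Cd38 (-1.12), the autophagy receptor Sqstm1 (-1.04), Lipa (-0.94), Igf1 (-0.91), Atf5 (-1.10), mt-Cytb (-0.95), mt-Nd6 (-0.88), C3 (-0.87), Gpnmb (-0.74), Psap (-0.74), C3ar1 (-0.68), the methyltransferase Setd6 (1.58) and Cd14 (1.13). In 1 fit or in 0 it was kept for Fpr2 (-1.88), Srxn1 (-1.06), Ccl5 (-0.95), Blvrb (-0.92), Cd5l (-0.91), Lgals3bp (-0.83), mt-Nd5 (-0.79), Nars (-0.66), Gpr176 (3.20), Tanc1 (1.26), Cxcl12 (1.45), Syne2 (1.34), P4ha2 (1.27) and Col3a1 (0.93). The fibroblast markers Cxcl12 and Col3a1 fell in WT (-1.72 and -0.52). The fibroblast marker sum was 283 and 301 CPM with PBS and 377 and 336 CPM after stimulation in KO cells.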

How the results depend on the processing

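Of the 6839 genes called in the KO response 0 changed sign in any alternative, over the 5592 kept by the stricter filter, the 6788 tested with only the groups compared and all 6839 in the others. Called genes of the KO response were 2582 to 3616 up and 2379 to 3467 down when 1 library was left out in turn, and 3150 up and 3776 down with library size alone, where 45.5% of calls were up in place of 51.6%. For WT the same were 2748 to 3474 up, 2520 to 3270 down, and 36.5% up in place of 50.7%. A fold threshold of 2 left 958 up and 833 down in KO, 1027 up and 891 down in WT, and 3 higher and 3 lower in the difference of responses. DESeq2 called 192 higher and 294 lower in that difference, where leaving out 1 library gave 5 to 31 and 15 to 68, and library size alone moved the median of all genes from -0.0 to 0.10. With the replicate number as a block KO had 3441 up and 3215 down, WT 3489 and 3377, and the difference 12 and 48. Deviations of libraries with the same number correlated at -0.0154 within KO and at 0.1829 at most, between the PBS groups of KO and WT. These correlations run over all tested genes, many at few counts, and cannot decide whether the numbers pair the libraries. The labels used here do not state a pairing, so the block is a setting, not a design. Of 379 called named genes 38 lost the call in at least 1 fit without 1 library, 117 at the fold threshold, 6 with the block and 5 with library size alone. Of 118 list counts 27 moved by over 1.5 times in at least 1 fit without 1 library, 75 at the fold threshold and 5 with library size alone. For genes not called only the call was compared. With 2 libraries a group, small changes may go uncalled, and genes at few counts have wide errors. The causes were not tested.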

Other observations

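Several gene classes were called in the KO response in shares other than the 20.2% up and 19.0% down of all tested genes. That difference was not tested. Calls were tied to abundance, with 4.49% up and 5.07% down in the lowest of 5 classes by mean level. The levels of the gene classes below were not compared. Of 1701 processed pseudogenes 136 rose (8%) and 65 fell (3.82%), and of 602 antisense genes 66 rose (11%) and 58 fell (9.63%). Of 48 miRNA genes 4 rose and 11 fell, of 52 snoRNA genes 5 rose and 0 fell, and of 22 mitochondrial tRNA genes 0 rose and 7 fell, while both mitochondrial rRNA genes rose. Of 6 T cell receptor variable genes 0 rose and 5 fell, beside a summed T and NK cell marker level of 15.8 and 21.1 CPM with PBS and 5.16 and 5.25 CPM after stimulation, and their part in those counts was not tested.

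Among motifs not tied to LPS signalling, a cell cycle homology region-like motif (TTTGAA) was in 22.2% of 248 promoters of genes risen past 16-fold and in 12.6% of promoters of tested genes. An ATF4-like motif (TGATGNAAT, both strands) was in 7 of those 248 (2.82%) and in 0.531% of promoters of tested genes. By gene group it was in 3 of 12 promoters of aminoacyl-tRNA synthetases (25%) and 2 of 29 promoters of the ATF4 group (6.9%).

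A few genes differed between the libraries of a group by more than most, and were chosen after their values were seen. Tlr4, the LPS receptor, stood at 13.9 and 12.3 CPM with PBS and 6.51 and 63.6 CPM after stimulation (adjusted p = 0.302 in edgeR's quasi-likelihood test), with stimulated library 2 above all others. Ifit2 stood at 1.21 and 28.6 CPM with PBS and 473 and 490.0 CPM after stimulation, and mt-Atp6 at 431 and 2415 CPM with PBS and 547 and 249 CPM after stimulation.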
